A study of Homo sapiens with 4 samples.

Results

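The vitamin D receptor VDR, its dimer partner RXRA and the 2 enzymes that make and destroy its hormone, CYP27B1 and CYP24A1, are described here in HCT-8 cells, an established human colorectal cancer line, in a form resistant to 5-fluorouracil. These 4 genes, each with a single row, were picked by symbol from the 20323 gene rows. CYP24A1 had very few counts in the controls. The genes were chosen with earlier results of the same comparison known. The differences between plasmids given for them are therefore a description, with no test. Poly(A) RNA was sequenced from 2 libraries of cells given a METTL14 overexpression plasmid and 2 of cells given a negative control plasmid. METTL14 is a subunit of the enzyme complex that places N6-methyladenosine on mRNA. All 4 libraries come from the resistant line and from cells given 100 ug/mL of cycloheximide, which stops ribosomes from elongating, so no value is from the parent line or from untreated cells. The line is 1 source of cells, the series describes 2 independent experiments, and the sources used here do not name a vitamin D compound or a serum among the conditions.

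VDR is a nuclear receptor that binds calcitriol, the active form of vitamin D, and pairs with a retinoid X receptor on DNA to switch target genes. CYP27B1 performs the last hydroxylation that makes calcitriol, and CYP24A1, itself one of the genes that VDR induces most, breaks calcitriol down, which closes a feedback loop. In the intestine the receptor is known for the genes of calcium uptake and for restraint of growth.

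Library totals lay between 19206661 and 20161082 counts. METTL14 itself was 14.7-fold higher with its plasmid (log2 fold change 3.88, SE 0.141). The controls were less alike than the METTL14 libraries, with a chi-square over its degrees of freedom of 28.77 against 3.29. Of 12 colorectal epithelial markers, 10 were detected at a mean of 1 CPM (counts in each 1e6 of the scaled library) in the controls and 11 with METTL14, and their summed level ran from 9179 to 9400.5 CPM with METTL14 and from 11949 to 18269.8 CPM in the controls. That sum is mostly KRT8, KRT18 and KRT19, which were called lower, whereas CDH17 (log2 fold change 1.87), CDH1 (0.74), CDX2 (0.44) and LGALS4 (0.44) were called higher and EPCAM was at -0.01. KRT8 and KRT18 share exon sequence. The summed levels of 10 leukocyte, 5 endothelial and 6 kidney proximal tubule markers stayed at or below 3.95 CPM in each library, with CD3E, CD3D, MS4A1, FCGR3A, KDR and SLC22A6 at 0, and 9 fibroblast markers summed to between 13.3 and 20.3 CPM. Over the 12700 genes tested (quasi-likelihood test of edgeR, p adjusted by Benjamini-Hochberg and below 0.05), 27.0% were called higher and 28.1% lower with METTL14, and the median log2 fold change was -0.01. Without METTL14 overexpression replicate 1 the number of lower genes went from 3569 to 2305. In such bulk libraries, fewer cells of one kind and less RNA per cell cannot be told apart.

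CYP24A1 (ENSG00000019186, protein-coding, GENCODE on GRCh38 chromosome 20, 54153449 to 54173973, minus strand) had 2 counts in each control library, against 122 and 158 in the METTL14 libraries. On the CPM scale the control libraries stood at 0.104 and 0.103 and the METTL14 libraries at 6.27 and 7.81. Both METTL14 libraries lay far above both controls, which held almost no CYP24A1 message. The fitted log2 fold change was 6.01 (SE 0.408), and the ratio of summed counts, scaled for library size, was 68.2, with a 95% exact interval of 26.4 to 252 that covers counting error only. Because the controls held 4 counts in all, the size of the rise is uncertain, and that range leaves out variation between replicates. CYP24A1 passed the filter on low counts only through the METTL14 libraries, as neither control reached 10 counts. Of the 247 tested genes with fewer than 10 counts in both controls, 199 were called higher, so a gene that enters the test in this way mostly had to differ. By log2 fold change it stood at rank 33 from the top of 12700 genes. The level reached was still modest, since 50.1% of the named rows had a lower CPM per kilobase of longest transcript in the METTL14 group, against 31.7% in the control group.

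CYP27B1 (ENSG00000111012, protein-coding, chromosome 12, 57762334 to 57768986, minus strand), the enzyme that completes calcitriol, had control counts of 42 and 43 and METTL14 counts of 56 and 52. These were 2.18 and 2.21 CPM against 2.88 and 2.57 CPM. The METTL14 libraries were slightly above both controls, by a log2 fold change of 0.31 (SE 0.285). The exact interval of the count ratio, 0.924 to 1.67, covers counting error only and includes no change. CYP27B1 shares 107 exon bases with METTL1, a tRNA methyltransferase gene on the same strand, in the full GENCODE annotation. METTL1 moved the other way, from 23.9 and 19.4 CPM to 8.73 and 10.3 CPM (log2 fold change -1.18, SE 0.169), so reads credited to CYP27B1 are less certain. METTL1 also shares exon sequence with EEF1AKMT3.

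VDR (ENSG00000111424, protein-coding, chromosome 12, 47841537 to 47943048, minus strand) had control counts of 1929 and 1845 and METTL14 counts of 2042 and 2071, or 100.3 and 94.7 CPM against 105 and 102 CPM. The receptor message was thus well expressed in each library. The gap between the nearest libraries of the groups, at 100.3 and 102 CPM, was smaller than the distance between the 2 controls. The mean went from 97.5 ± 4 to 104 ± 1.84 CPM (SD, n = 2), a log2 fold change of 0.09, smaller than its SE of 0.0957. The exact interval of the count ratio, 1.02 to 1.11, covers counting error only. The change in CYP24A1 was therefore measured beside a receptor message that was 1.06-fold higher. VDR shares 19 exon bases with an antisense gene, and without a stated strand setting reads that lie within those bases cannot be told apart.

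RXRA (ENSG00000186350, protein-coding, chromosome 9, 134317098 to 134440585, plus strand), the retinoid X receptor that serves VDR and many other nuclear receptors as a partner, had control counts of 2367 and 2268 and METTL14 counts of 3123 and 2979. Its mean went from 119.8 ± 4.76 to 154 ± 9.39 CPM (SD, n = 2), a log2 fold change of 0.36 (SE 0.101). The 2 METTL14 libraries, at 160.4 and 147 CPM, were above both controls at 123 and 116 CPM. In each of the 4 genes the lowest METTL14 library was above the highest control, and groups were likewise apart, in either direction, for 79.8% of all tested genes, so this separation is not particular to them.

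**Figure D1:**
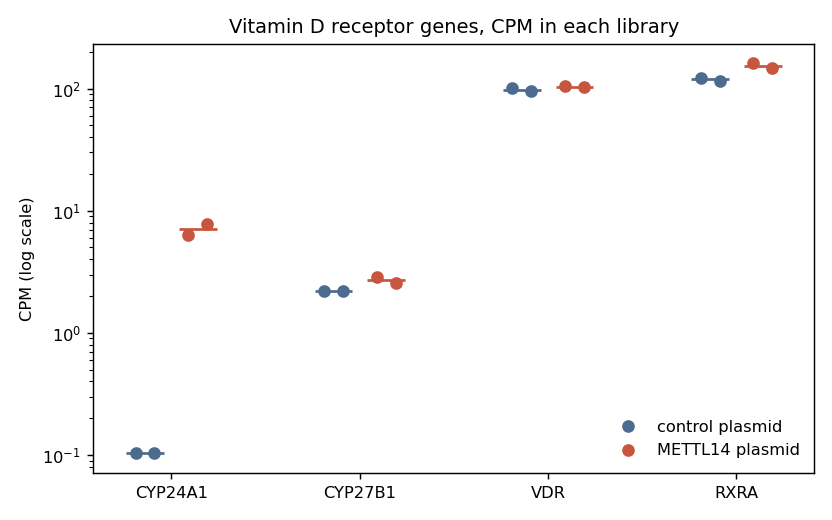
CPM of CYP24A1, CYP27B1, VDR and RXRA in each of the 4 libraries on a log axis, with points for libraries and short lines for group means (n = 2). CYP24A1 moves from 0.103 to 7.04 CPM, while VDR stays between 94.7 and 105 CPM.

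Per kilobase of the longest GENCODE transcript, the order of levels in the controls was RXRA (21.3 and 20.2 CPM per kilobase), VDR (21 and 19.8), CYP27B1 (0.86 and 0.869) and CYP24A1 (0.0319 and 0.0315). RXRA and VDR did not differ beyond their spread there. With METTL14 the per-kilobase order became RXRA (27.8 and 25.5), VDR (22 and 21.4), CYP24A1 (1.92 and 2.39) and CYP27B1 (1.13 and 1.01). The degrading enzyme thus passed the synthesising one, which stood above it in both controls. These levels depend on the transcript length used, and for RXRA the exons of the GENCODE basic set, which are shorter, would give 66.7 and 63.1 CPM per kilobase in the controls.

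The genes whose pattern over the 4 libraries was most like that of each member were found by the root-mean-square difference of centred log2 CPM among 11915 genes. For CYP24A1 these were TMEM59L (0.269), TMIGD3 (0.28) and TNFSF15 (0.326). TMEM59L had control counts of 1 and 2 and METTL14 counts of 99 and 93, TMIGD3 had 3 and 1 against 140 and 162, and TNFSF15, a cytokine of the TNF family, had 45 and 33 against 886 and 1054. TMIGD3 shares exon sequence with ADORA3, FAM53C with CDC25C, SPPL2B with OAZ1 and GLS2 with SPRYD4. Among the nearest patterns to VDR were PLCB3 (0.00688) and PIAS4 (0.00978). Those to RXRA were MED25 (0.00556), FAM53C (0.00901) and SPPL2B (0.00907), and those to CYP27B1 were CEBPA (0.0129), SIPA1 (0.0155) and GLS2 (0.0158). The nearest genes to CYP24A1 were more distant from it than those of the other members were from theirs. The distance is not scaled for the size of a change, so this follows from the large change of CYP24A1 and is no separate result. TMEM59L and TMIGD3, like CYP24A1, had fewer than 10 counts in both controls and passed the filter only through the METTL14 libraries.

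The genomic neighbours of CYP24A1 were low or little changed. PFDN4, a prefoldin subunit that starts 33873 bases away, had 18.7 and 22.7 CPM in the controls and 17.5 and 19.3 CPM with METTL14 (log2 fold change -0.17, SE 0.148, edgeR adjusted p = 0.352). BCAS1, 82854 bases away on the other side, had control counts of 1 and 2 and no METTL14 count and was not tested. Beside CYP27B1, MARCHF9 was called higher (log2 fold change 0.79, SE 0.191) and METTL1 lower. Next to VDR, HDAC7 (0.25, SE 0.143), which shares exon sequence with SLC48A1, and TMEM106C (-0.19, SE 0.0928) were not called. Flanking RXRA, WDR5, a subunit of histone methyltransferase complexes, was called lower (-0.59, SE 0.138), and COL5A1 was not called (0.67, SE 0.412).

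Genes that supply vitamin D or its precursors gave a single call. Of 9 such genes 4 were tested, 1 was higher and none lower (edgeR; 0 lower at an unadjusted p below 0.05, with DESeq2 and with limma-voom), with a median log2 fold change of 0.23. That is 25% higher, against 27.0% of all genes, but 4 tested genes are too few to read a share from. CYP2R1, the main hydroxylase of the liver step, had control counts of 178 and 198 and METTL14 counts of 159 and 177 (log2 fold change -0.20, SE 0.165), CYP2J2 was at 0.02 (SE 0.277), and CUBN, a subunit of the receptor that takes up carrier-bound vitamin D, at 0.51 (SE 0.529). DHCR7, which diverts the vitamin D precursor to cholesterol, was higher (0.44, SE 0.0999). Without METTL14 overexpression replicate 1 the call of DHCR7 was lost and the count was 0. The carrier GC had 1 count in all, in control replicate 1.

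CYP24A1 and CYP27B1 are mitochondrial P450 enzymes, which receive electrons from ferredoxin, itself reduced by ferredoxin reductase. All 3 genes listed for ferredoxins and their reductase were lower: FDX1 (log2 fold change -0.41, SE 0.133), FDX2 (-0.57, SE 0.134) and FDXR (-0.44, SE 0.118). None was higher (edgeR, and 0 at an unadjusted p below 0.05, with DESeq2 and with limma-voom). Whether FDX2 passes electrons to these P450 enzymes was not tested. Over all genes 28.1% were lower, and a list of 3 genes is too short to read a share from. FDXR stood at 47.2 and 54.4 CPM in the controls and 38.4 and 36.5 CPM with METTL14. The 3 genes were lower where CYP24A1 was higher, and the drops were small beside its rise. None of the 3 was called without METTL14 overexpression replicate 1 or without replicate 2, and DESeq2 did not call FDX1. FDX2 shares exon sequence with a second row of that name and with Raver1.

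Among 22 tested partners and coregulators of VDR, 8 were higher (36.4%), 4 lower (18.2%) and 10 not called, with a median log2 fold change of 0.11. Over all genes the shares were 27.0% and 28.1%. TBL1X, a subunit of the NCOR and SMRT corepressor complexes, rose from 62.6 and 68.7 CPM to 139 and 137 CPM (log2 fold change 1.07, SE 0.1). The coactivators NCOA6 (0.74, SE 0.0936) and NCOA3 (0.72, SE 0.124) rose too. BAZ1B, of a chromatin remodelling complex that binds VDR, fell from 219 and 209 CPM to 119.7 and 129 CPM (-0.78, SE 0.0985). Named after their values were seen, the other lower genes were SMARCA4 (-0.86), BRD9 (-0.67) and SNW1 (-0.40), and BRD9 and SNW1 share exon sequence with TRIP13 and SLIRP. Coactivators and corepressors were both among the genes that rose, so the list did not move as one kind. The number of higher genes was 5 without METTL14 overexpression replicate 1 and 5 without replicate 2, and the number of lower genes 2 without replicate 1.

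Of 9 tested factors that are reported to act on VDR or CYP24A1 transcription, 3 were higher, 3 lower and 3 not called, with a median log2 fold change of 0.20. The shares, 33.3% each way, are near the 27.0% higher and 28.1% lower of all genes. CEBPB rose from 24.9 and 35.2 CPM to 56.3 and 53.6 CPM (log2 fold change 0.87, SE 0.167) and ETS1 by 0.64 (SE 0.166). EZH2, the methyltransferase of Polycomb repression, fell from 66.8 and 56.1 CPM to 26.9 and 24.4 CPM (-1.26, SE 0.13). CDX2 (0.44) was the third higher gene and SNAI1 (-0.48) was also lower, both named after their values were seen. With control replicate 2 left out 5 were higher, and with METTL14 overexpression replicate 2 left out 1 was, and ETS1 was among those no longer called.

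Other genes known to be induced through VDR were mostly higher where they were expressed. Of 38, 18 were tested, and 11 of these were higher (61.1%, against 27.0% of all genes), 1 was lower and 6 were not called. The median log2 fold change was 0.72, against -0.01 over all tested genes. The share is given as a description, since the list was written with earlier results of these data known and the genes have many inputs besides VDR. IGFBP3, a binding protein of insulin-like growth factors, rose from 15.4 and 18.4 CPM to 65.6 and 65.6 CPM (log2 fold change 1.96, SE 0.126, edgeR adjusted p = 9.2e-05). KDM6B, a histone demethylase, rose from 18.5 and 20.3 CPM to 47.4 and 44.6 CPM (1.25, SE 0.118). CDH1, E-cadherin, which VDR is known to raise in colon cancer cells, rose from 318 and 292 CPM to 521 and 499.9 CPM (0.74, SE 0.0987). SERPINB1 rose by 0.90 (SE 0.123). For each of these 4 genes both METTL14 libraries lay above both controls, as groups were apart for 79.8% of all tested genes. CDH1 is also an epithelial marker, a list in which 4 genes were called higher and 3 keratins lower, and CD14 of the induced list is a leukocyte marker. Their part in these counts was not tested.

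The other calls and the silent genes of this list are named here after their values were seen. CLDN2, a pore-forming claudin, was the one gene called lower, from 20.7 and 9.6 CPM to 3.19 and 2.42 CPM (log2 fold change -2.43, SE 0.385), and it shares exon sequence with RIPPLY1. Without control replicate 2 the lower count was 2. The calcium entry channel TRPV6, a classic intestinal target, had 2 counts in each control and 6 and 17 counts with METTL14, too few for the test. S100G, the intestinal calcium buffer, TRPV5, SLC30A10 and CST5 had no count in any library, and CAMP, CYP3A4 and TNFSF11 had 1 count each, in METTL14 overexpression replicate 2. ATP2B1, the calcium pump of the basolateral membrane, was expressed and not called (-0.04, SE 0.118). CYP2B6 had no control count and 2 and 7 counts with METTL14, and was not tested either. At this depth several other well-known targets thus had too little message to show whether they changed with CYP24A1.

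**Figure D2:**
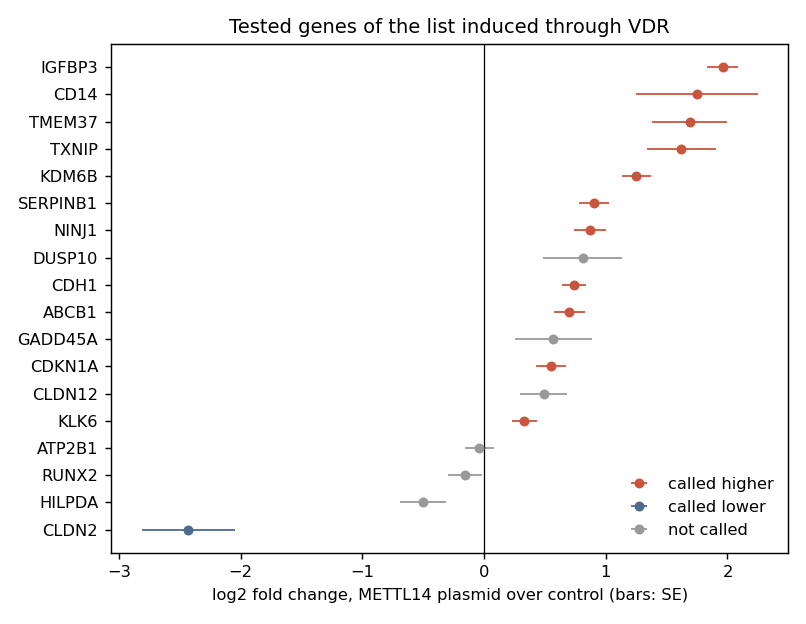
Log2 fold change (METTL14 plasmid over control plasmid) with its SE for the 18 tested genes known to be induced through VDR. 11 points are called higher, from KLK6 at 0.33 to IGFBP3 at 1.96, and CLDN2 lies apart at -2.43.

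Genes known to be repressed through VDR gave no lower call. Of 8, 4 were tested, 1 was higher and none lower (edgeR; 0 lower at an unadjusted p below 0.05, with DESeq2 and with limma-voom), with a median log2 fold change of 0.66. The higher share is 25%, against 27.0% of all genes, and 4 tested genes are too few to read a share from. MYC, a growth regulator that calcitriol lowers in colon cells, rose from 99.5 and 83.4 CPM to 245 and 232 CPM (log2 fold change 1.38, SE 0.118). PTHLH was at 0.64 (SE 0.446), SPRY2 at 0.29 (SE 0.179) and DKK4 at 0.69 (SE 0.841). The higher count was 2 without control replicate 1, where DKK4 was called (3.02), and 2 without control replicate 2, where SPRY2 was called (0.60). DKK4 had control counts of 19 and 2 and METTL14 counts of 10 and 25, and its sign turned when control replicate 2 (-0.17) or METTL14 overexpression replicate 2 (-0.08) was left out.

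VDR and RXR bind paired copies of a hexamer, AGGTCA or a close form of it, set 3 bases apart. The RefSeq promoter table used here (GRCh38.p14, 250 bases before each transcript start) held windows for RXRA and not for CYP24A1, CYP27B1 and VDR. The hexamers AGGTCA and AGTTCA and GGGTCA and GGTTCA were searched on both strands, with overlaps allowed. A single hexamer was found in 33.8% of all 35116 windows and a pair of them 3 bases apart in 23 windows (0.0655%). Of 41 windows for 32 genes of the induced list, 16 held a hexamer (39.0%) and none a pair. Of the 12 windows of genes called higher, 5 held one (41.7%). Windows are shown for RXRA, for KDM6B as a target that rose and for CLDN2 as the one that fell, choosing those that touch no GENCODE exon, with hexamers in capitals.

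RXRA, upstream start, chr9:134326205-134326454, plus strand, in an intron, no hexamer: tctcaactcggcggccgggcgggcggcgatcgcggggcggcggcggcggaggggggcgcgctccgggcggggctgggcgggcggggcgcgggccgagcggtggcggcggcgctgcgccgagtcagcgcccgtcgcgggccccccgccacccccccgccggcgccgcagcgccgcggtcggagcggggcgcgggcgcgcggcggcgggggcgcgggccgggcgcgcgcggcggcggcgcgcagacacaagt
RXRA, downstream start, chr9:134379045-134379294, plus strand, in an intron, 1 hexamer 236 bases before the start: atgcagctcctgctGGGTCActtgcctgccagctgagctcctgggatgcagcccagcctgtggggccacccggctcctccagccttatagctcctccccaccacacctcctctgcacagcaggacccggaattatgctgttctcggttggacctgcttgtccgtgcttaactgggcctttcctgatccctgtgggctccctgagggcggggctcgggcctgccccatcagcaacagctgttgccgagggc
KDM6B, chr17:7833967-7834216, plus strand, between genes, 1 hexamer 187 bases before the start: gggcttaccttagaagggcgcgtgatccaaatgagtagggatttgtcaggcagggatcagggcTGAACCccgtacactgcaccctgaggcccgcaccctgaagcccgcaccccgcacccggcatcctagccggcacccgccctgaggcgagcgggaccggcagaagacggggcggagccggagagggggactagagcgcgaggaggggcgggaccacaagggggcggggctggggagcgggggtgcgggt
CLDN2, chrX:106918110-106918359, plus strand, in an intron, 2 hexamers 236 and 95 bases before the start: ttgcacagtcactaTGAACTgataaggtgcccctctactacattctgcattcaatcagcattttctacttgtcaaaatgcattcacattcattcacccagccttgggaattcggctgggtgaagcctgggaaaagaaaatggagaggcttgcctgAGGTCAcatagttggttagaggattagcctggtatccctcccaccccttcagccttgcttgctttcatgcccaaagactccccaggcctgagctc

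The first RXRA window is 89.2% G and C, against 64.4% in the second, 70.4% for KDM6B and 48.8% for CLDN2. A gene that rose and a gene that fell both carry single hexamers, and none of the windows shown holds a pair. A match is a stretch of letters and no measured binding, and no match says only that the letters are missing from this window.

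RXRA also serves other receptors, and several of these changed more than VDR. Of 15 other partners 10 were tested, 6 were higher (60%, against 27.0% of all genes) and none lower, against 28.1% (edgeR; 0 lower at an unadjusted p below 0.05, with DESeq2 and with limma-voom), with a median log2 fold change of 0.44. PPARG, a regulator of lipid genes and of differentiation in the colon, rose from 6.87 and 8.78 CPM to 51.3 and 49.6 CPM (log2 fold change 2.69, SE 0.149, edgeR adjusted p = 8.93e-05). PPARA, the fatty acid receptor of oxidation genes, rose from 44.1 and 57.9 CPM to 239 and 245 CPM (2.25, SE 0.144), PPARD by 0.90 (SE 0.105) and the retinoic acid receptor RARG by 0.56 (SE 0.105). RXRB, the second expressed retinoid X receptor, rose by 0.47 (SE 0.11), and RXRG had 1 count in all. NR4A1, named after its values were seen, had control counts of 505 and 5194 and METTL14 counts of 1334 and 1274, a gap between controls that leaves its direction unknown. Without control replicate 1 the lower count was 1.

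**Figure D3:**
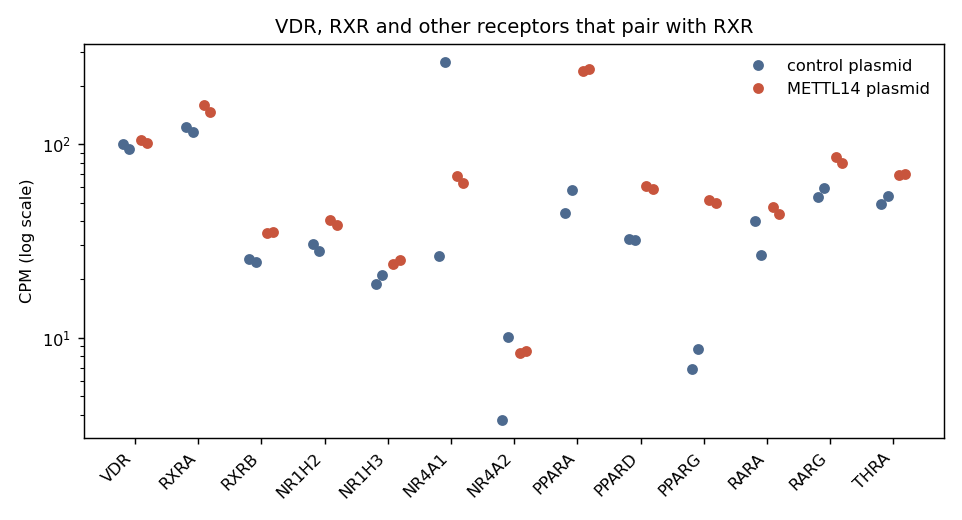
CPM of VDR, RXRA, RXRB and the 10 tested partner receptors in each library on a log axis, 2 points per group. The METTL14 points of PPARA and PPARG stand above their controls by several times the distance seen for VDR, and the 2 controls of NR4A1 lie at 26.3 and 267 CPM.

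Targets of the other RXR pairs were also called higher more often than lower. Of 14 tested, 8 were higher (57.1%, against 27.0% of all genes), 1 was lower (7.14%, against 28.1%) and 5 were not called, with a median log2 fold change of 0.73. PDK4, a PPAR target that restrains glucose oxidation, rose from 1.66 and 2.46 CPM to 10.3 and 11.3 CPM (log2 fold change 2.38, SE 0.242). FGF19, an ileal hormone that is among the known targets of the bile acid receptor NR1H4, rose by 2.10 (SE 0.201), ABCG1, a sterol exporter induced by oxysterol receptors, by 1.93 (SE 0.246), and TGM2, a retinoic acid target, by 1.56 (SE 0.141). NR1H4 itself had no count in any library, and its other targets NR0B2, SLC51A and SLC51B had at most 9 counts in a library and were not tested. CYP26A1, a retinoic acid counterpart of CYP24A1 in the sense that it degrades its receptor's ligand, had no count in any library. CYP26B1 of the same list, named after its values were seen, was expressed and called higher (0.71, SE 0.118). CRABP2, a carrier of retinoic acid, was the lower gene (-0.71, SE 0.0943), named after its values were seen. The lower count was 2 without control replicate 1 and 3 without control replicate 2.

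Calcium transport is the best-known process under VDR in the gut, and genes listed for it changed in both directions. The 5 genes shared with the induced list gave no call. Of these, ATP2B1 was at -0.04 (SE 0.118), and CASR, S100G, TRPV5 and TRPV6 were not tested. Of 10 tested genes 5 were higher (50%, against 27.0% of all genes), 2 lower (20%, against 28.1%) and 3 not called, with a median log2 fold change of 0.32. Among the 5, CALB2 and ATP2A3 had fewer than 10 counts in both controls and passed the filter only through the METTL14 libraries, so they mostly had to differ. ATP2B4, a plasma membrane calcium pump, rose from 52.5 and 59.8 CPM to 168 and 168 CPM (log2 fold change 1.58, SE 0.107), and ORAI3, a store-operated channel, by 0.61 (SE 0.123). STIM2, a calcium sensor of the endoplasmic reticulum, fell (-0.76, SE 0.114). CALB2, calretinin, had control counts of 1 and 3 and METTL14 counts of 40 and 39 (4.19, SE 0.564), so the size of its rise is uncertain. ATP2A3 (3.13) and STIM1 (0.45) were also higher and ATP2A2 (-0.37) lower, named after their values were seen. The call of ORAI3 was lost without METTL14 overexpression replicate 1, and the lower count was 1 without replicate 1 and 1 without replicate 2. The higher count was 3 with a minimum of 5 CPM in 2 libraries.

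Within the cytochrome P450 family, CYP24A1 was one of several genes that were higher. Of 54 other P450 genes 19 were tested, 11 were higher (57.9%, against 27.0% of all genes) and none lower, against 28.1% (edgeR; 0 lower at an unadjusted p below 0.05, with DESeq2 and with limma-voom), with a median log2 fold change of 0.71, and 20 had no count in any library. CYP4F3, which inactivates leukotriene B, rose from 0.364 and 1.23 CPM to 14.3 and 12.9 CPM (log2 fold change 4.08, SE 0.382). CYP4F12 (2.50, SE 0.271) and CYP4F11 (2.18, SE 0.127) were also higher. These CYP4F genes lie near each other on chromosome 19, and whether they share reads was not tested. CYP1A1, the marker target of the aryl hydrocarbon receptor, rose from 4.73 and 4.98 CPM to 22.4 and 23.7 CPM (2.24, SE 0.149). Of the 19, 2 had fewer than 10 counts in both controls, and both were called higher, having passed the filter only through the METTL14 libraries. CYP3A7, among these and named after its values were seen, had no control count and 18 and 20 counts with METTL14. Its fitted log2 fold change, 7.24 (SE 1.09), was above the 6.01 of CYP24A1, and its size is uncertain. CYP3A7 shares exon sequence with CYP3A7-CYP3A51P. Without control replicate 1 the lower count was 1.

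**Figure D4:**
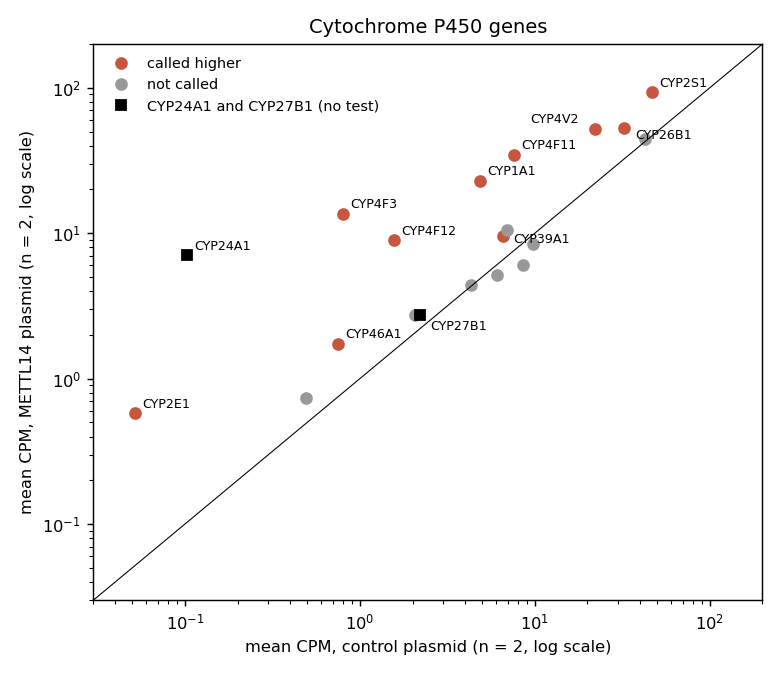
Mean CPM of tested P450 genes with the control plasmid against the METTL14 plasmid, both on log axes (n = 2 per group), with the line of equality. CYP24A1 lies farthest above the line among the genes drawn, and CYP27B1 lies close to it. CYP3A7, with no control count and a larger fitted log2 fold change (7.24), is not drawn.

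Over the nuclear receptor superfamily, with VDR and RXRA set aside, 26 of 46 genes were tested, 10 were higher (38.5%, against 27.0% of all genes), 2 lower (7.69%, against 28.1%) and 14 not called, and the median log2 fold change was 0.34. NR2F1 rose from 3.07 and 4.62 CPM to 13.8 and 13.7 CPM (log2 fold change 1.84, SE 0.221), and 15 genes of this family are also in the list of RXR partners. NR4A3 (-1.11) and NR1D2 (-0.38) were the lower genes, named after their values were seen. VDR, at 0.09, was below the family's median change and RXRA, at 0.36, near it. The higher count was 6 without METTL14 overexpression replicate 1 and 6 without replicate 2. With either control left out 4 genes were lower. With METTL14 overexpression replicate 1 left out 1 was lower, and with replicate 2 left out 0 were.

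**Figure D5:**
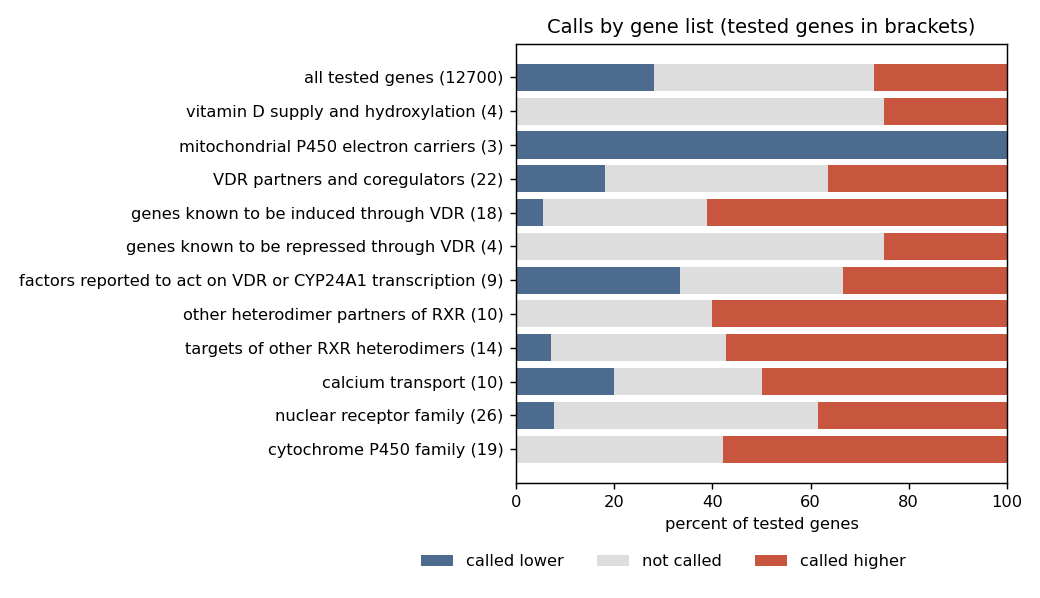
Percent of the tested genes of each list that were called lower, not called or called higher, with all 12700 tested genes in the top bar. Higher calls take 61.1% of the induced VDR list and 57.9% of the P450 list, against 27.0% of all genes, and the bars of short lists rest on as few as 3 genes.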

How the data were processed

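Groups and replicate numbers came from the labels. RSEM, StringTie, HISAT2, Bowtie2 and fastp are named, with the build hg18, per the submitters' processing notes. The authors deposited expected counts per gene, not normalized, which were rounded here to whole numbers. Of 20323 identifiers, 20171 are in GENCODE release 29 (GRCh38), so the build behind the counts is unclear, and positions and lengths are those of GENCODE. The strand setting is among the details not given in the sources used here. Rows lacking a symbol, 102 in number, held at most 0.0366% of counts. Totals were 19206661 to 20161082 per library.

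Counts were fitted in edgeR 4.0.16 (R 4.3.3) after filterByExpr at 10 counts, with TMM scaling and a robust quasi-likelihood test without covariates, adjusted over 12700 genes by Benjamini-Hochberg at 0.05. The SE is the log2 fold change over the root of F. With 2 libraries a group, p-values rest on the spread shared over genes and cover these libraries only. The procedure was tested on simulated data. Members and lists were chosen with earlier results of these data known. Named are the members, up to 4 genes of smallest p per list, the 3 nearest patterns among genes of at least 1 CPM (log2 CPM, prior count 2), the flanking genes and METTL14, except for some genes whose results are not reported here. Alternatives were DESeq2 1.42.0, its size factors, limma-voom (limma 3.58.1), library totals, other filters, no robust step, a replicate term and leaving out each library. Other calculations used Python 3.11.15, pandas 2.3.3 and scipy 1.17.1. Exact intervals are Clopper-Pearson at 95%.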

Additional observations from a re-analysis of the deposited data

How the results depend on the processing

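The fitted log2 fold change of CYP24A1 was 5.77 with limma-voom, and that of VDR was 0.14 with library totals. Leaving out each library gave 5.84 to 6.16 for CYP24A1, 0.23 to 0.39 for CYP27B1, 0.04 to 0.13 for VDR and 0.30 to 0.42 for RXRA, each above 0. The same left 2306 to 4450 higher and 2305 to 4575 lower genes in all. Counts of calls in the lists ranged from 0 to 1 (supply, higher), 0 to 3 (electron carriers, lower), 5 to 10 (coregulators, higher), 2 to 6 (coregulators, lower), 1 to 2 (induced, lower), 1 to 2 (repressed, higher), 1 to 5 (factors, higher), 0 to 1 (RXR partners, lower), 1 to 3 (RXR targets, lower), 1 to 2 (calcium, lower), 6 to 15 (receptors, higher), 0 to 4 (receptors, lower) and 0 to 1 (P450, lower). With a minimum of 5 CPM the calcium list had 3 higher and the receptor family 0 lower, and with library totals the latter had 1. Of 476 values of 40 named genes under 12 alternatives, 459 kept their direction and side of the threshold, 10 lost a call, 3 gained one and 4 turned sign, namely CYP2J2, between -0.22 (control replicate 1 left out) and 0.31 (control replicate 2 left out) and at -0.19 with METTL14 overexpression replicate 2 left out, and DKK4, between -0.17 (control replicate 2 left out) and 3.02 (control replicate 1 left out) and at -0.08 with METTL14 overexpression replicate 2 left out. The cause was not tested.

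The replicate numbers are shared by the groups, but the deviations of same-numbered libraries had a correlation of 0.0437, so no general pairing was seen. A pairing that touches only some genes cannot be seen in this way. The replicate block gave 3793 higher and 3903 lower genes in all, against 3429 and 3569 without it. With the replicate block the induced list had 2 lower, the repressed list 2 higher, the RXR target list 3 lower and the P450 list 1 lower. Summing rows of a symbol was not run because each member has 1 row. With 4 counts in both controls together, depth limits the size of the CYP24A1 change.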
